A study of Mus musculus with 16 samples.

Results

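Dab2, Pdzrn4, Angptl7, Shisa2, Epdr1, P2rx7, Cyp1b1 and Fstl1 are 8 genes, of 31527 measured on these arrays, whose signal was far brighter in sorted hair follicle stem cells (HFSC) labelled tHFSC than in interfollicular epidermis (IFE), and which are neither transcription factors nor markers used in the sort. They were chosen by that difference, so their height in HFSC over IFE is described here without a test. They are not the only such genes: 79 genes, the 8 among them, had a difference at least as large as the smallest of the 8. Over the tHFSC of the 4 conditions without a knockout, Dab2 ranked 1, Pdzrn4 5, Angptl7 6 and Shisa2 13. Epdr1 ranked 22, Fstl1 53, Cyp1b1 63 and P2rx7 79. Each gene is followed by its brightest probe over all arrays, and the 8 genes have 12 probes. On mm9 the 60-base probes used lie at chr15:6390616-6390675 (Dab2), chr15:92602131-92602190 (Pdzrn4), chr4:147869984-147870043 (Angptl7), chr14:60250369-60250428 (Shisa2), chr13:19683763-19683822 (Epdr1), chr5:123134194-123134253 (P2rx7), chr17:80106547-80106606 (Cyp1b1) and chr16:37836492-37836551 (Fstl1). Gene models of mm9 were not used here, so their exons are not named.

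The series holds 1 one-colour array for each of 16 groups of mouse cells, and the WT mice are C57BL/6. The sort took cells high in CD34 and ITGA6 without Sca1 as HFSC, and cells high in both ITGA6 and Sca1 as IFE. HFSC were profiled as aHFSC and as tHFSC, abbreviations that the labels do not spell out, in 6 conditions. The first 3 conditions are Col17a1 cKO (Col17a1 flox/flox, K15crePR), aPKC cKO (aPKCλ flox/flox, K15crePR) and control (WT), all 12 weeks old and treated on the skin with RU486, 2.5 mg per mouse for 5 days at 8 weeks, the drug that switches on crePR. In the cKO mice the keratin 15 promoter drives the recombinase. The other 3 conditions are young hCOL17A1 tg mice of 12 weeks, and aged hCOL17A1 tg and aged WT mice of 25 to 26 months, with no RU486 in their own labels. The promoter of the transgene is not given there. Plucking 3 days before collection is labelled for the aHFSC of control and Col17a1 cKO mice. IFE came from aged and young hCOL17A1 tg mice and from aged and young WT mice. The labels do not say whether an array holds 1 animal or a pool, and no group has a second array.

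The bulge is the part of the follicle where its stem cells rest between hair cycles, held quiet by BMP signals and by low Wnt activity. When a new cycle starts, cells next to the bulge divide first and the bulge follows. The 8 genes encode different kinds of protein. Angptl7, Fstl1 and Epdr1 encode secreted glycoproteins: an angiopoietin-like factor, a follistatin-related protein that modulates BMP and TGF-beta signals, and an ependymin-related protein. P2RX7 is an ion channel of the cell surface that opens on extracellular ATP. Shisa proteins were first described in Xenopus embryos, where they hold Wnt and FGF receptors back in the endoplasmic reticulum. DAB2 is an adaptor that brings cargo to clathrin-coated pits, PDZRN4 is a PDZ and RING finger protein of the LNX family, and CYP1B1 is a cytochrome P450 that oxidises oestrogens and polycyclic hydrocarbons and is a target of the aryl hydrocarbon receptor.

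Values are log2 signals from which the 75th percentile of their array was subtracted, so 0 is the level that 75% of probes do not exceed. Levels of different probes are not comparable, and each gene is followed only across arrays. The 8 young HFSC arrays lie on 1 slide, and the 4 aged HFSC and 4 IFE arrays on another. For HFSC, age and slide cannot be told apart. The share of probes well above background was 59.1% on the aged hCOL17A1 aHFSC array, 68.8% on that of aged hCOL17A1 tHFSC and 73.8% to 79.8% elsewhere. Across genes, young hCOL17A1 IFE correlated with the other IFE arrays at 0.915 to 0.924, where those reached 0.969 to 0.974 with each other. The arrays of aged hCOL17A1 aHFSC and of young hCOL17A1 IFE thus stand apart, and results that rest on them are also given without them. Marker sums went with the sort label, but the bulge list holds Cd34 and the IFE list Ly6a (Sca1), both used in the sort. The summed linear signal of 10 bulge markers, relative to the 75th percentile, ran from 216 to 370 in aHFSC. It ran from 291 to 516 in tHFSC, against 92.2 to 123 in IFE. The IFE marker list ran the other way, with 711 to 1023 in aHFSC and 579 to 901 in tHFSC, against 1445 to 1570 in IFE. Krt15 of the bulge list was the exception, with mean log2 signals of 6.16 in aHFSC, 6.56 in tHFSC and 6.60 in IFE. In IFE the sums rest largely on bright keratin genes: Krt15 in the bulge list, and Krt5 (8.98) and Krt14 (9.39) in the IFE list. The fibroblast list had 4 of 7 members measured and low sums of 0.231 to 0.610 in aHFSC, 0.332 to 0.619 in tHFSC and 0.218 to 0.394 in IFE. For endothelium (3 of 5 markers measured), melanocytes (5 of 5), Langerhans and myeloid cells (6 of 6), T cells (3 of 5), muscle (5 of 5) and Schwann cells (3 of 4) the sums of the 3 populations overlapped.

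All 12 HFSC arrays lay above all 4 IFE arrays for each of the 8 genes, a pattern that 1.21% of genes show and that the choice of the genes favours. In bulk samples, fewer cells of a type and less RNA per cell cannot be told apart. On the IFE arrays the probes used for Dab2, Pdzrn4, Angptl7 and Shisa2 were never well above background, a flag that the scanner software sets. Dab2 was at 4.71 on average over the tHFSC of the 4 conditions without a knockout, against -5.86, -6.27, -6.28 and -6.73 in IFE of young hCOL17A1, young WT, aged hCOL17A1 and aged WT mice. Counted against the mean, over the 4 IFE arrays, of the weakest signal called well above background on each, that is 649-fold. By the same count tHFSC was 208-fold brighter than IFE for Pdzrn4, 280-fold for Angptl7 and 47.9-fold for Shisa2. These folds are not strict lower bounds. The weakest such signal was -4.27 on the aged hCOL17A1 IFE array, where Epdr1 at -3.77 was not well above background. In aHFSC, over all 6 conditions, the folds were 164 for Dab2, 26.4 for Pdzrn4, 31.6 for Angptl7 and 45.9 for Shisa2. The other Pdzrn4 probe was well above background on all 4 IFE arrays. Its means were -2.08 in aHFSC, -0.08 in tHFSC and -3.49 in IFE, so the Pdzrn4 folds hold for 1 probe.

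P2rx7, Cyp1b1 and Fstl1 were well above background on all 4 IFE arrays. Over the 4 conditions without a knockout, tHFSC was brighter than IFE by 37.4-fold for Fstl1, 28.9-fold for Cyp1b1 and 25.5-fold for P2rx7. Over all 6 conditions, aHFSC was brighter by 44.8-fold, 20.1-fold and 17.0-fold for the same genes in that order. Epdr1 was well above background only on the young hCOL17A1 IFE array, 1 of 4, so no fold is given for it. The rule had no numerical threshold, so no member lies just inside one. With normexp background correction the log2 differences between the tHFSC of all 6 conditions and IFE shrank to between 2.98 (Shisa2) and 6.22 (Dab2). All stayed positive, with Cyp1b1 taken without the young control tHFSC array.

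**Figure D1:**
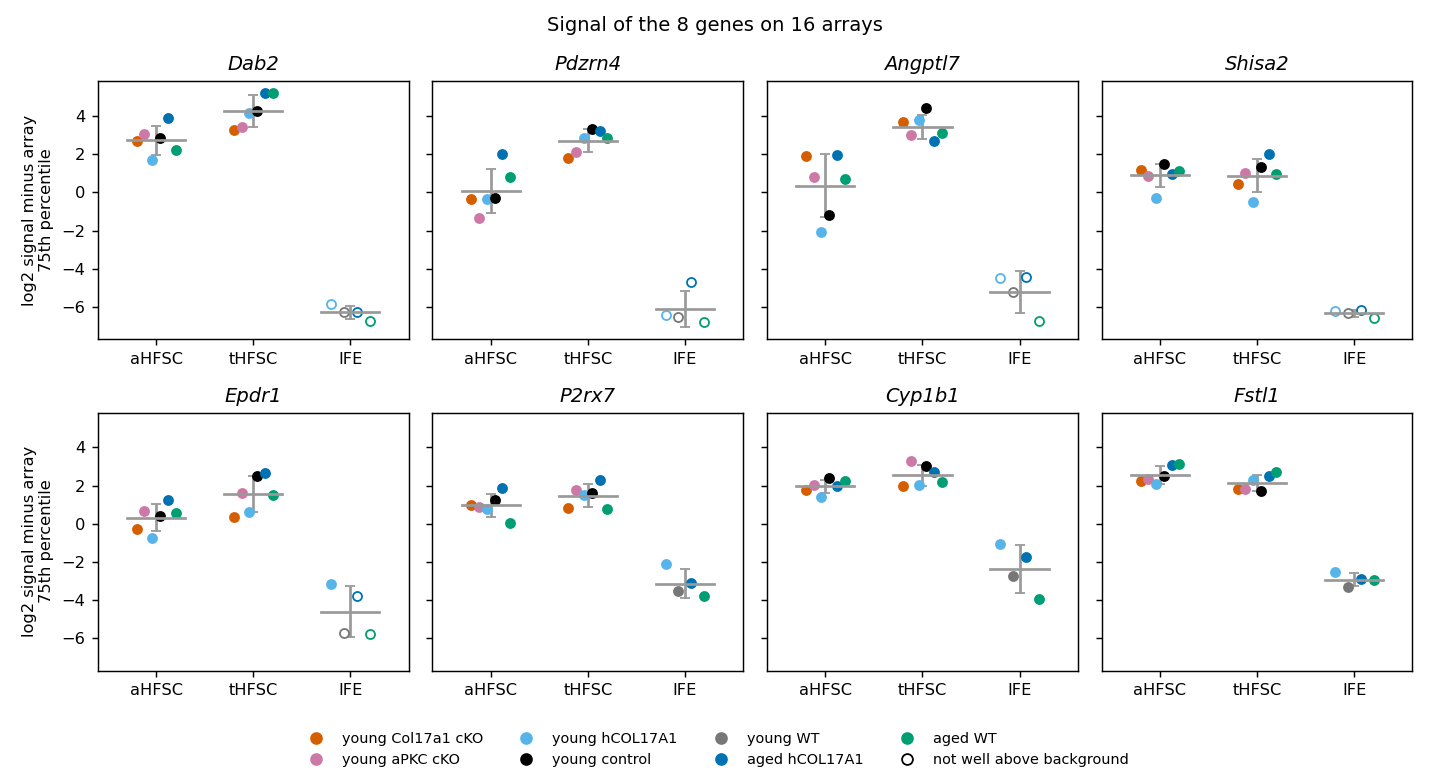
Each panel shows 1 gene, with its log2 signal minus the array 75th percentile on the vertical axis and aHFSC (6 arrays), tHFSC (6 arrays) and IFE (4 arrays) from left to right; points are arrays, coloured by condition, open where not well above background, and grey lines are the mean and SD. The open IFE points of Dab2, Pdzrn4, Angptl7 and Shisa2 lie below every HFSC point, and Angptl7 in aHFSC spreads from -2.08 to 1.96.

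Among HFSC, aHFSC were compared with tHFSC in each of the 6 conditions. Pdzrn4 was the 1 member of 8 that passed the test: its log2 difference was -2.61 ± 0.38 (SE, limma, adjusted p = 0.0358), and it was lower in aHFSC in 6 of 6 conditions. Lower calls made up 0.149% of all genes, and calls in either direction 0.52%. Angptl7, Dab2 and Epdr1 were also lower in aHFSC in 6 of 6 conditions, as were 4.85% of genes, but did not pass. Shisa2 did not differ in a common direction, and Fstl1 was higher in 5 of 6 conditions, with no member higher in all 6 (4.55% of genes). Control tHFSC and 3 other tHFSC arrays had a part in the choice of the genes, which favours high tHFSC values here.

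Pdzrn4 signals were -1.32, -0.31 and 2.0 (lowest, median, highest) in aHFSC and 1.81, 2.85 and 3.31 in tHFSC. The groups overlapped by 1 aHFSC array, that of aged hCOL17A1 mice, which lay above the Col17a1 cKO tHFSC array. Condition by condition the log2 differences were -2.15 in Col17a1 cKO, -3.44 in aPKC cKO, -3.21 in young hCOL17A1, -3.59 in young control, -1.23 in aged hCOL17A1 and -2.04 in aged WT mice. A second Pdzrn4 probe, on mm9 chr15:92601043-92601102, also stood lower in aHFSC in 6 of 6 conditions, with a mean log2 difference of -2.0, and correlated at 0.59 with the first, on chr15:92602131-92602190, over the 12 HFSC arrays. Without the 2 arrays that stand apart the difference was -2.88 (adjusted p = 0.0459). Pdzrn4 no longer passed in 14 of 29 alternatives, over which the difference ran from -3.10 to -1.63. These 14 included the fits within slide 1 and within slide 2, and those that left out either array of the control, Col17a1 cKO, aPKC cKO, young hCOL17A1 or aged WT condition.

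Angptl7, an angiopoietin-like factor, had the largest fitted difference of the 8 genes, -3.10 ± 0.69 (limma, adjusted p = 0.113). Its signals were -2.08, 0.75 and 1.96 in aHFSC and 2.70, 3.37 and 4.40 in tHFSC. All 6 aHFSC arrays lay below all 6 tHFSC arrays, as for 0.498% of genes. The differences covered a wide span: -5.87 in young hCOL17A1 and -5.60 in young control mice, but -2.38 in aged WT, -2.23 in aPKC cKO, -1.78 in Col17a1 cKO and -0.74 in aged hCOL17A1 mice. The tHFSC arrays were close together and the aHFSC arrays carried that span.

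Dab2 signals were 1.71, 2.75 and 3.91 in aHFSC and 3.28, 4.20 and 5.21 in tHFSC, and the groups overlapped. The fitted difference was -1.53 ± 0.35 (limma, adjusted p = 0.116), from -3.02 in aged WT to -0.39 in aPKC cKO mice. Epdr1 signals were -0.73, 0.49 and 1.23 in aHFSC and 0.37, 1.56 and 2.65 in tHFSC, with a difference of -1.24 ± 0.22 (limma, adjusted p = 0.0584). Epdr1 was closest to the threshold without passing. It passed with normexp (-1.09, adjusted p = 0.0479), and Angptl7 passed when conditions were not paired (adjusted p = 0.0386).

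P2rx7, the ATP-gated channel, and Cyp1b1 showed small differences of -0.51 ± 0.20 (limma, adjusted p = 0.339) and -0.57 ± 0.20 (adjusted p = 0.286), each lower in aHFSC in 5 of 6 conditions. Cyp1b1 signals were 1.43, 2.02 and 2.39 in aHFSC and 2.0, 2.46 and 3.29 in tHFSC. P2rx7 signals were 0.03, 0.93 and 1.86 in aHFSC and 0.76, 1.56 and 2.32 in tHFSC. The other 2 P2rx7 probes differed by -0.22 and 0.07 between the states and correlated at -0.19 and 0.10 with the one used, so the P2rx7 values hold for 1 probe.

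Fstl1 signals were 2.07, 2.42 and 3.16 in aHFSC and 1.74, 2.04 and 2.72 in tHFSC, a difference of 0.43 ± 0.19 (limma, adjusted p = 0.408). It was lower in aHFSC in young hCOL17A1 mice alone, with a difference of -0.20. Shisa2 signals were -0.27, 1.04 and 1.48 in aHFSC and -0.52, 1.01 and 2.01 in tHFSC, and the difference was 0.01 ± 0.24 (limma, adjusted p = 0.992). Its differences ran from -1.03 in aged hCOL17A1 to 0.76 in Col17a1 cKO mice, with a sign that changed between conditions. Over the 8 genes the median difference was -0.91, where that of all genes was -0.09, and 6 of 8 had an unadjusted p under 0.05, as had 12.5% of genes. The tHFSC arrays that had a part in the choice of the genes favour both values, so these are a description. Of 10 bulge markers 2 had a positive difference, none passed, and their median was -0.40; of 7 IFE markers 5 were positive, with a median of 0.06. Cd34, a sort marker, averaged 4.16 in aHFSC and 5.86 in tHFSC. The part of these markers in the differences of the 8 genes was not tested.

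**Figure D2:**
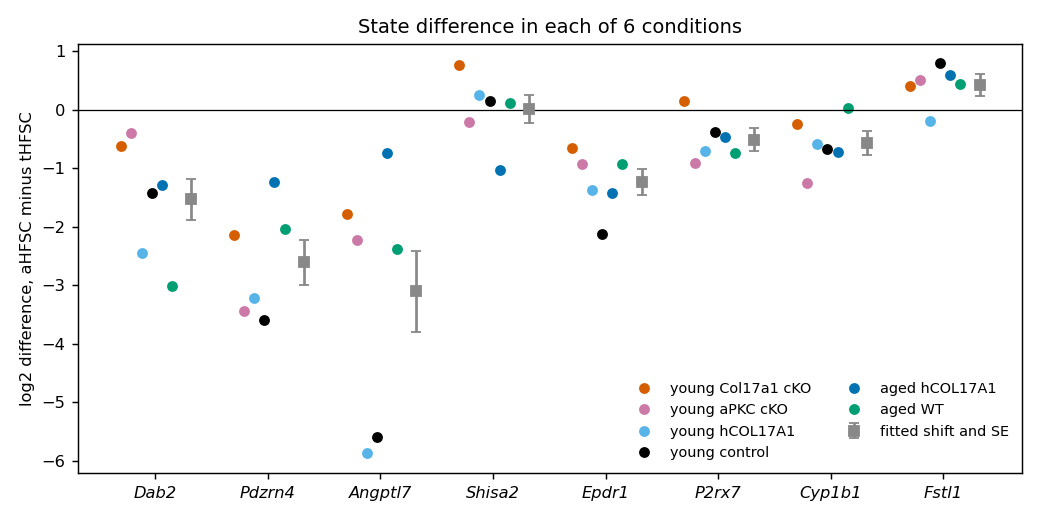
For each gene on the horizontal axis, coloured points give the log2 difference of aHFSC minus tHFSC in each of the 6 conditions, and the grey square with its bar the fitted shift and SE; the line at 0 marks no difference. Dab2, Pdzrn4, Angptl7 and Epdr1 lie below 0 in all 6 conditions, and the Angptl7 points reach -5.87.

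The 250 bases before the annotated start of the 4 genes that were lower in aHFSC in every condition were set beside each other, from RefSeq on GRCm38.p6, a later build than the mm9 of the probes. Pdzrn4 and Dab2 have 2 listed starts each. Capitals mark matches on either strand to 8 motifs, and all 8 were searched in 32851 promoters.
Pdzrn4, chr15:92396560-92396809, plus strand: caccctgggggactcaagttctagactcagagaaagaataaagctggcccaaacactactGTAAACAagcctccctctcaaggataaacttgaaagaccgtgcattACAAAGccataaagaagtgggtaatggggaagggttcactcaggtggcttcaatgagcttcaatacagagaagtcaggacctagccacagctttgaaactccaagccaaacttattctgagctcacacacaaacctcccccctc
Pdzrn4, chr15:92596859-92597108, plus strand: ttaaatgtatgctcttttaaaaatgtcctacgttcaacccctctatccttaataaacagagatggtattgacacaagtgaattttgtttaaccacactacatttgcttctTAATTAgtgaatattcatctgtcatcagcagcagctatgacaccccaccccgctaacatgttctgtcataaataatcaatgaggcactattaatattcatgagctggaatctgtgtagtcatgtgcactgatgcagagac
Angptl7, chr4:148500463-148500712, minus strand: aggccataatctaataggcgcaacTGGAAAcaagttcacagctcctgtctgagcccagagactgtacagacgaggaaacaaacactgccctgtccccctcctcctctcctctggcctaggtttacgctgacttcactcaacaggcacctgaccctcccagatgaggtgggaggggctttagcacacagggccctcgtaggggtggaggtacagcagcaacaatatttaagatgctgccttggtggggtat
Dab2, chr15:6299539-6299788, plus strand: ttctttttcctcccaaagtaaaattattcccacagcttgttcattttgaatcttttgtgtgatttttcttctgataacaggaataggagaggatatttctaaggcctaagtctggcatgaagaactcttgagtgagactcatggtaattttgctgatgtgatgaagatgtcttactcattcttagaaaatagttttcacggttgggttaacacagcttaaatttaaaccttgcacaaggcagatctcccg
Dab2, chr15:6386498-6386747, plus strand: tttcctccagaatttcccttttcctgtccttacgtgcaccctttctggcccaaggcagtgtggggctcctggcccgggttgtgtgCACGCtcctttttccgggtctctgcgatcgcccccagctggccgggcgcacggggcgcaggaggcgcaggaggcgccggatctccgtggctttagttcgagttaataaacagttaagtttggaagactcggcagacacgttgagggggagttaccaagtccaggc
Epdr1, chr13:19619831-19620080, minus strand: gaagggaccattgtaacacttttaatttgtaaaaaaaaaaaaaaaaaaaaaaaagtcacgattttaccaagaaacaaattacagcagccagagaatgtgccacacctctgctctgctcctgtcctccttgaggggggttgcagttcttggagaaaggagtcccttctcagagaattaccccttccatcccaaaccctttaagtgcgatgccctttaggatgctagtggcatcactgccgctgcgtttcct
The Pdzrn4 starts hold TGTTTAC, a core of forkhead factors, read on the opposite strand (3.17% of all promoters), ACAAAG, a core of TCF and SOX factors (16.5%), and TAATTA, a homeobox core (4.84%). Angptl7 holds TGGAAA, the NFAT core (18.6%), and the second Dab2 start GCGTG, the core to which the aryl hydrocarbon receptor binds (28.2%), on the opposite strand. No match to the 8 motifs lies in the Epdr1 window or in the first Dab2 window. Of the other genes, Cyp1b1 and Shisa2 hold GCGTG, Cyp1b1 and P2rx7 hold ACAAAG, and P2rx7 holds TGACTCA, the AP-1 site (4.46%). GCCAAC (9.13% of promoters) and TATAAA (12.4%) were found at no start of the 8 genes. The motif TGACTCA reads TGAGTCA on the opposite strand, and no motif lies within another. GC content ran from 36.8% to 68.0% over the 11 starts of the 8 genes, with a median of 52.4% over all promoters.

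Paralogues and partners were followed from lists of 3 to 11 genes per family. Id2, a BMP target in the list of Fstl1, was the 1 list member that passed, and fell in aHFSC, with a difference of -1.68 ± 0.25 (limma, adjusted p = 0.0358), where 0.149% of genes were called lower. In that list 0 of 10 measured members had a positive difference, with a median of -0.61, where 39.8% of all genes were positive with a median of -0.09. Bmp4, a ligand, averaged -1.69 ± 0.61 in aHFSC, -0.31 ± 1.22 in tHFSC and 3.99 ± 0.52 in IFE (SD, n = 6, 6 and 4), the reverse of Fstl1 between HFSC and IFE. Sparcl1, the matrix protein of the same list, averaged -5.64 in aHFSC, -5.07 in tHFSC and -5.01 in IFE, and was well above background on 3 of 16 arrays. None passed in the other 6 lists, with positive differences for 3 of 10 Dab2, 0 of 3 Pdzrn4, 3 of 7 Angptl7, 3 of 6 measured Shisa2, 3 of 9 P2rx7 and 2 of 8 Cyp1b1 list members, beside the same 39.8% of all genes.

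Relatives of the 8 genes did not all share their height in HFSC over IFE. Among the angiopoietin-like genes Angptl2 was the one of that kind, with -1.85 ± 0.64 in aHFSC, -0.50 ± 0.80 in tHFSC and -5.08 ± 1.43 in IFE. Angptl1 varied within each population, with -1.02 ± 2.44 in aHFSC, -1.76 ± 2.24 in tHFSC and -0.33 ± 1.89 in IFE. In the purinergic list Nt5e, the ectoenzyme that makes adenosine from AMP, averaged 0.33 ± 0.46 in aHFSC and 1.21 ± 0.50 in tHFSC, against -4.36 ± 1.31 in IFE. Panx1, a channel that releases ATP, ran the other way, with 1.24 ± 0.70 in aHFSC, -0.01 ± 0.72 in tHFSC and 2.89 ± 1.01 in IFE. Dab1, the relative of Dab2 that acts below reelin receptors in neurons, averaged -2.27 ± 2.0 in aHFSC, -2.03 ± 1.84 in tHFSC and 1.40 ± 1.20 in IFE. Fcho2, which starts clathrin pits, averaged 1.20 ± 0.26 in aHFSC, 1.78 ± 0.76 in tHFSC and 0.59 ± 1.31 in IFE.

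For Cyp1b1, the receptor gene Ahr averaged -0.27 ± 1.23 in aHFSC and 0.73 ± 1.30 in tHFSC, below the 2.73 ± 0.75 of IFE. Its repressor Ahrr, well above background on 6 of 16 arrays, stood at -3.93 ± 1.79 in aHFSC, -4.52 ± 0.58 in tHFSC and -3.80 ± 0.81 in IFE. The LNX family members Lnx1 and Lnx2 averaged -1.27 and -0.60 in aHFSC, -0.55 and -0.58 in tHFSC and -0.98 and 0.16 in IFE. Shisa4 averaged -3.79 in aHFSC, -3.56 in tHFSC and -3.18 in IFE, and Shisa3 -5.71, -5.49 and -5.69 in the same populations. Shisa4 was well above background on 11 of 16 arrays and Shisa3 on 2, so Shisa3 lay near background. These levels are a description, since the contrast with IFE chose the 8 genes.

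The knockouts were compared with control HFSC, which share their RU486 treatment and slide. In Col17a1 cKO HFSC no member passed, and no gene did (0% of genes, limma), with 2 of 8 members at an unadjusted p under 0.05, as had 3.98% of genes. The 2 were Epdr1, with -1.41 ± 0.39 (adjusted p = 1.0), and Cyp1b1, with -0.84 ± 0.35 (adjusted p = 1.0). Epdr1 stood at -0.29 in Col17a1 cKO and 0.39 in control aHFSC, and at 0.37 in Col17a1 cKO and 2.51 in control tHFSC. The larger gap was the one between the tHFSC arrays. The control tHFSC array had a part in the choice of the genes and the cKO arrays had none, which favours lower values in cKO tHFSC. Of the 8 genes, 6 were lower in both states, a pattern found in 33.6% of genes; the exceptions were Angptl7 and Fstl1, and none was higher in both (19.9% of genes). Angptl7 was at 1.88 in Col17a1 cKO and -1.19 in control aHFSC, but at 3.66 in Col17a1 cKO and 4.40 in control tHFSC. Of 10 bulge markers 1 had a positive difference, with a median of -0.39, and of 7 IFE markers 6 had, with a median of 0.86, against -0.09 for all genes. The part of these markers in the Epdr1 and Cyp1b1 values was not tested.

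In aPKC cKO HFSC no member passed (0% of genes, limma), and 0 of 8 members had an unadjusted p under 0.05, as had 3.44% of genes. Pdzrn4 had the largest difference, -1.11 ± 0.66 (adjusted p = 1.0), with -1.32 in aPKC cKO and -0.29 in control aHFSC, and 2.11 in aPKC cKO and 3.31 in control tHFSC. Pdzrn4 and Shisa2 were lower in both states, as were 23.7% of genes, and no member was higher in both. Bulge markers were positive for 2 of 10 (median -0.20) and IFE markers for 5 of 7 (median 0.30), against a median of 0.03 for all genes. Both knockouts were set against the same control arrays, and the control tHFSC array had a part in the choice of the genes. Plucking is labelled for the aHFSC of control but not of aPKC cKO mice. In aHFSC it cannot be told apart from the aPKC knockout.

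The hCOL17A1 transgene was compared at each age. In young mice 3 of 8 members had an unadjusted p under 0.05, as had 6.77% of genes, and none passed (0% of genes, limma). Shisa2, from a family that restrains Wnt and FGF receptors, differed by -1.80 ± 0.41 (adjusted p = 0.453), with -0.27 in young hCOL17A1 and 1.48 in young control aHFSC and -0.52 in young hCOL17A1 and 1.33 in young control tHFSC. The 2 young hCOL17A1 arrays were the lowest of the 12 HFSC arrays for Shisa2. Epdr1 differed by -1.49 ± 0.39 (adjusted p = 0.472) and Cyp1b1 by -1.0 ± 0.35 (adjusted p = 0.647). In both states 7 of the 8 genes were lower, as were 27.6% of genes, with Fstl1 the exception and none higher in both (30.3% of genes). Of 10 bulge markers 0 had a positive difference, with a median of -0.67, and of 7 IFE markers 6 had, with a median of 1.43, against 0.01 for all genes. The part of these markers in the values of the 8 genes was not tested. The RU486 of the control mice, and the plucking labelled for their aHFSC alone, cannot be told apart from the transgene here.

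In aged mice the transgene comparison had no member past the threshold (0% of genes, limma), and 1 of 8 with an unadjusted p under 0.05, as had 11.9% of genes. That gene was P2rx7, at 1.70 ± 0.35 (adjusted p = 0.21), with 1.86 in aged hCOL17A1 and 0.03 in aged WT aHFSC and 2.32 in aged hCOL17A1 and 0.76 in aged WT tHFSC. The 2 aged hCOL17A1 arrays were the highest of the 12 HFSC arrays for P2rx7, and the 2 with the fewest probes well above background. With the mean of the P2rx7 probes the difference was 0.38. Epdr1 differed by 0.88 ± 0.39 (adjusted p = 0.421). Epdr1, P2rx7 and Pdzrn4 were higher in both states, as were 18.1% of genes, and Fstl1 was lower in both, as were 36.5%. Without the 2 arrays that stand apart the difference was 1.67 for P2rx7 and 0.99 for Epdr1, but -0.04 for Pdzrn4. That left aged hCOL17A1 HFSC with the tHFSC array alone, which had 68.8% of probes well above background. The bulge marker list had 10 of 10 members positive with a median of 0.45, against -0.23 for all genes, and 1 of 7 IFE markers was positive, with a median of -0.22. The part of these markers in the values was not tested.

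The difference between the aged and the young transgene comparison was itself fitted, a test added after the data were seen. No member passed (0% of genes, limma), and 4 of 8 had an unadjusted p under 0.05, as had 10.5% of genes. The difference was 2.37 ± 0.55 for Epdr1 (adjusted p = 0.325), 2.27 ± 0.58 for Shisa2 (adjusted p = 0.338), 1.96 ± 0.49 for P2rx7 (adjusted p = 0.338) and 1.13 ± 0.49 for Cyp1b1 (adjusted p = 0.474). Without the arrays that stand apart they were 2.48, 2.89, 1.93 and 1.22 in that order, with aged hCOL17A1 HFSC left with the tHFSC array alone. With the mean of its probes P2rx7 differed by 0.58. Bulge markers were positive for 10 of 10, with a median of 1.24, and IFE markers for 1 of 7, with a median of -1.61, against -0.24 for all genes; their part in these values was not tested. Epdr1, P2rx7 and Pdzrn4 were lower in both states when young and higher in both when aged, as were 6.86% of genes. Aged hCOL17A1 set directly against young hCOL17A1 HFSC gave higher values in both states for 7 of 8 genes, as for 21.7% of genes, and lower tHFSC values for Angptl7 (-1.09). Aged WT set against young control HFSC gave lower values in both states for 3 genes, Cyp1b1, P2rx7 and Shisa2, as for 28% of genes, and higher ones for Fstl1, as for 28.5%. Both sets lie across the slides, and the young control mice had RU486 and, for their aHFSC, labelled plucking.

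**Figure D3:**
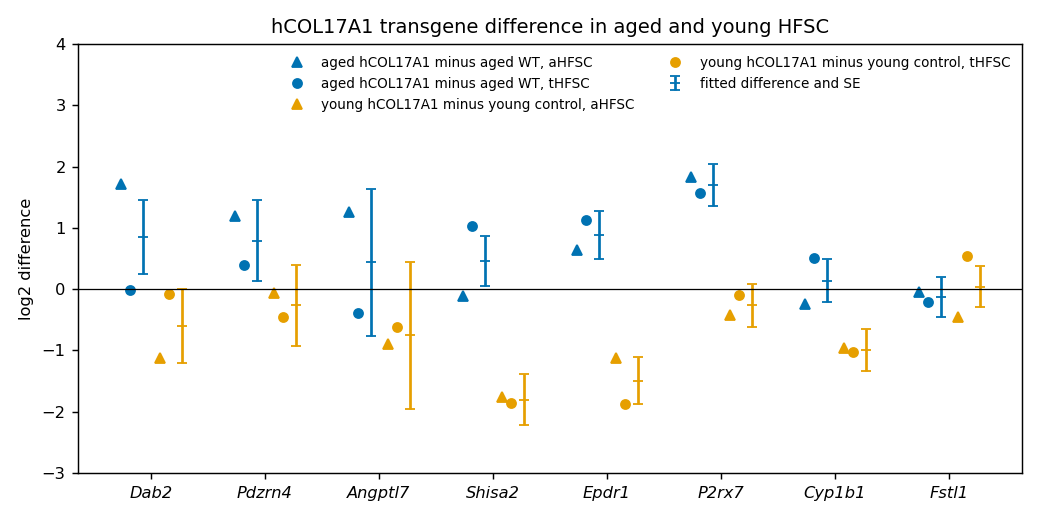
For each gene, blue symbols give aged hCOL17A1 minus aged WT and orange symbols young hCOL17A1 minus young control HFSC as log2 differences, triangles for aHFSC and circles for tHFSC, with bars for the fitted difference and SE. Epdr1, P2rx7 and Pdzrn4 are above 0 in both states of aged mice and below 0 in both states of young mice.

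The state difference was also compared between aged and young conditions. No member passed (0% of genes, limma), and 0 of 8 had an unadjusted p under 0.05, as had 6.18% of genes. Angptl7 differed by 2.31 ± 1.31 (adjusted p = 0.846) and Pdzrn4 by 1.46 ± 0.68 (adjusted p = 0.812), both less negative in aged mice on average. Without the 2 arrays that stand apart these were 1.49 and 1.06, and with the mean of its probes Pdzrn4 differed by 0.52. IFE markers were positive for 6 of 7 (median 0.60) and bulge markers for 5 of 10 (median 0.02), against -0.11 for all genes, and their part was not tested. The state difference of Angptl7 was -2.38 in aged WT and -0.74 in aged hCOL17A1 mice. In young mice it was -1.78 in Col17a1 cKO, -2.23 in aPKC cKO, -5.60 in control and -5.87 in hCOL17A1. That of Pdzrn4 was -2.04 in aged WT and -1.23 in aged hCOL17A1 mice, -2.15 in Col17a1 cKO and -3.21 to -3.59 in the other young conditions. Slide, and the RU486 and plucking labelled in young conditions alone, cannot be told apart from age.

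Within IFE, hCOL17A1 was set against WT. All 8 genes were higher in hCOL17A1 IFE at both ages, as were 32.7% of genes, with a median of 1.07 against 0.16 for all genes. No member passed (0% of genes, limma), and 3 of 8 had an unadjusted p under 0.05, as had 5.56% of genes. Epdr1 differed by 2.28 ± 0.39 (adjusted p = 0.844), with -3.15 in young hCOL17A1 and -5.69 in young WT IFE and -3.77 in aged hCOL17A1 and -5.79 in aged WT IFE. Cyp1b1 differed by 1.95 ± 0.35 (adjusted p = 0.844), with -1.03 in young hCOL17A1 and -2.74 in young WT IFE and -1.72 in aged hCOL17A1 and -3.93 in aged WT IFE. P2rx7 differed by 1.03 ± 0.35 (adjusted p = 0.844), by 0.65 without the young hCOL17A1 IFE array and by 0.43 with normexp. With normexp the Epdr1 difference was also 0.43. Epdr1 was not well above background on 3 of the 4 arrays, so the size of its difference is uncertain, and Dab2, Pdzrn4, Angptl7 and Shisa2 were so on all 4.

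Most markers of the bulge list moved with these values. On the young hCOL17A1 IFE array Cd34 stood at 0.32, Lgr5 at -0.91 and Tbx1 at -0.42, against at most -3.86, -6.29 and -3.62 on the other IFE arrays. Nfatc1 went the other way, with -1.25 on that array and 2.42 in young WT IFE. Krt15 and Wif1 differed by 0.08 and 0.17 between young hCOL17A1 and young WT IFE. Of 10 bulge markers, 7 were higher in hCOL17A1 than in WT IFE at both ages. In the aged pair, which leaves out the young hCOL17A1 IFE array, 8 of the 10 were higher in hCOL17A1 IFE. Among them were Foxc1 by 1.09, Lhx2 by 1.01, Wif1 by 1.43 and Lgr5 by 0.09. Wif1 was well above background on 0 of the 4 IFE arrays and Lgr5 on 1. Cd34 and Krt15 were lower, with Cd34 at -5.08 in hCOL17A1 and -3.86 in WT IFE. Epdr1 and Cyp1b1 differed by 2.02 and 2.20 in that pair. The part of bulge cells in these differences was not tested. Aged set against young IFE gave lower values in both genotypes for Cyp1b1, Dab2, Epdr1 and P2rx7, as for 31.8% of genes. Cyp1b1 differed by -0.94 ± 0.35 (limma, adjusted p = 0.745), the 1 member of 8 with an unadjusted p under 0.05, as had 6.45% of genes, and no member passed (0% of genes).

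Among the 12 HFSC arrays the 8 genes moved partly together. Pearson correlations over their 28 pairs ran from -0.29 to 0.81 with a median of 0.50, and 23 were positive. Dab2 correlated at 0.81 with Pdzrn4 and at 0.81 with Epdr1, Epdr1 at 0.81 with Cyp1b1, and Pdzrn4 at 0.79 with Angptl7. Fstl1 stood outside, with -0.29 against Angptl7 and 0.23 against Shisa2 as its extremes. The arrays share slides and conditions, and the difference between aHFSC and tHFSC enters each correlation, so these are descriptions of 12 arrays.

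**Figure D4:**
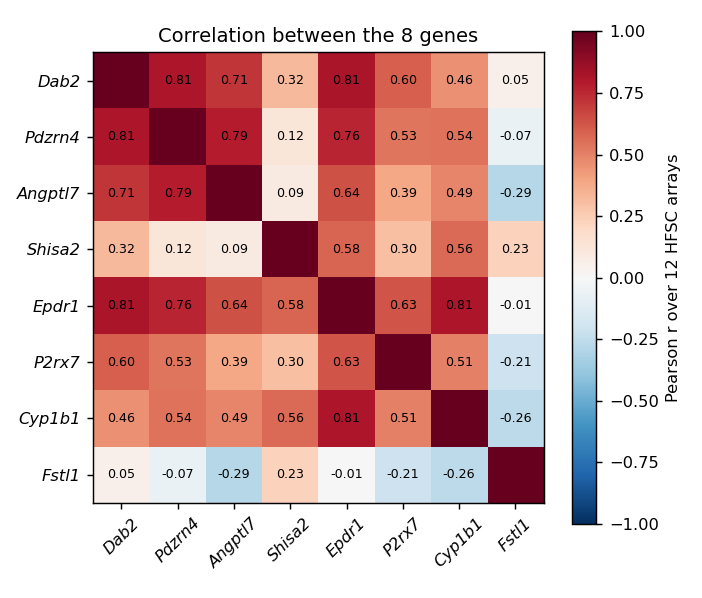
The grid gives Pearson's r between each pair of the 8 genes over the 12 HFSC arrays, red for positive and blue for negative values, with the diagonal at 1 by definition. Dab2, Pdzrn4, Angptl7 and Epdr1 form the block of high values, and Fstl1 has r from -0.29 to 0.23 with the others.

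Ordered from highest to lowest over the 12 HFSC arrays, most neighbouring arrays lay closer together than the residual SD as moderated by limma. That SD was 1.20 for Angptl7, 0.66 for Pdzrn4, 0.60 for Dab2 and 0.33 to 0.41 for the other 5. Gaps below that SD were 11 of 11 for Cyp1b1, 10 for Dab2, Angptl7 and Fstl1, 9 for Shisa2 and P2rx7 and 7 for Pdzrn4 and Epdr1. Sorting 12 values by itself makes most gaps narrow, so these counts are a description only. The widest gap of Dab2, 0.95, separated the aged WT and aged hCOL17A1 tHFSC arrays from the rest. The range over HFSC was widest for Angptl7 (6.49) and narrowest for Fstl1 (1.42). The highest array was aged hCOL17A1 tHFSC for Shisa2, Epdr1 and P2rx7, young control tHFSC for Pdzrn4 and Angptl7, aged WT tHFSC for Dab2, aPKC cKO tHFSC for Cyp1b1 and aged WT aHFSC for Fstl1. The lowest was young hCOL17A1 aHFSC for Dab2, Angptl7, Epdr1 and Cyp1b1.

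Among 13594 named genes well above background on all HFSC arrays, the 2 closest to each member over the 12 HFSC arrays were sought. So wide a search over 12 arrays that share slides and conditions finds high r easily. The genes are a description of these arrays, and shared regulation was not tested. Dab2 ran closest to the chemokine gene Cxcl14 (r = 0.96) and the bulge transcription factor gene Nfib (0.96). Pdzrn4 ran closest to the splicing factor gene Srrm4 and the synuclein gene Sncg (0.94 each), and Angptl7 to the deubiquitinase gene Cyld (0.94) and the endothelin receptor gene Ednra (0.93). Epdr1 was followed most closely by Rgs11 (0.95) and the complement inhibitor gene Serping1 (0.94), Shisa2 by the sorting nexin gene Snx18 (0.94) and Adprh (0.91), and Cyp1b1 by the ephrin gene Efnb2 (0.90) and the Wnt inhibitor gene Wif1 (0.89). For P2rx7 they were Rbm34 (0.91) and Ndufs1 (0.88), and for Fstl1 Rrnad1 (0.94) and the filamin gene Flna (0.89). Of these 16, Ednra and Wif1 were also low in IFE, with mean log2 signals of -0.61 and -1.86 in aHFSC and 1.41 and -0.55 in tHFSC, against -6.19 and -6.21 in IFE. Cxcl14 was not, with 3.08 in aHFSC, 4.68 in tHFSC and 3.31 in IFE.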

How the data were processed

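Sorted mouse epithelial cells were measured on 16 one-colour Agilent arrays, 1 per group. Per the labels' protocols, RNA was amplified as cDNA with a whole-transcriptome kit and labelled with Cy3. The authors deposited scanner output of Agilent Feature Extraction 11.5.1.1, whose intensity values are processed signals, per the file headers, on probes designed on mm9. They also deposited a table of log2 values, which matched log2 processed signals, less the 75th percentile, within 0.02 for nearly all probes. The scanner file of young control tHFSC ends early, so 9264 of its 55681 probes, that of Cyp1b1 among them, were taken from that table without flags.

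Control and outlier spots were left out, spots of a probe averaged, and 49792 probes well above background on at least 2 arrays kept, the brightest for each of 31527 gene rows. Of 55681 probes, 28020 were named through RefSeq accessions, 3423 by symbol, 295 by synonym and 23943 kept the file's name. Promoters came from RefSeq on GRCm38.p6, with an entry for each of the 8 members. limma 3.58.1 (R 4.3.3; lmFit and eBayes with a trend, two-sided) was run on all 16 arrays, with terms for the HFSC conditions, for 1 shift between aHFSC and tHFSC shared by all of them, and for the level, age and transgene of IFE (6 residual degrees of freedom, or 5 with state by age). The scatter around this additive fit stands for the error, since no group has replicates, and may be technical. Benjamini-Hochberg adjustment ran over all genes, with a threshold of 0.05. Fits were tested on simulated data. Alternatives were normexp (offset 50), quantile normalization, the deposited log2 table, other filters, probes, moderation and pairing, fits within slides, and leaving out arrays. The number of arrays limits the precision.

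The 8 members, the family lists and the marker lists were chosen with earlier results of these data known. Text names the members, list genes past the threshold, up to 2 per family with the widest range over arrays, and the 2 genes most correlated with each member.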

Additional observations from a re-analysis of the deposited data

Results flagged for a closer look

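For 3 genes the hCOL17A1 difference pointed one way in both states of young HFSC and the other way in both states of aged HFSC, as it did in 6.86% of genes. The aged minus young difference of the transgene comparison was 2.37 ± 0.55 for Epdr1 (limma, adjusted p = 0.325), 1.96 ± 0.49 for P2rx7 (adjusted p = 0.338) and 1.05 ± 0.93 for Pdzrn4 (adjusted p = 0.661), so none passed. For Epdr1 the differences were 0.63 and 1.12 in aged aHFSC and tHFSC and -1.12 and -1.87 in young aHFSC and tHFSC. For P2rx7 they were 1.83 and 1.56 in aged and -0.43 and -0.10 in young cells, and for Pdzrn4 1.19 and 0.39 in aged and -0.07 and -0.45 in young cells, in the same order of states. Without the 2 arrays that stand apart the aged minus young difference of Pdzrn4 was 0.22 and its aged difference -0.04. With the mean of its probes the aged minus young difference of P2rx7 was 0.58 and its aged difference 0.38. Of 10 bulge markers all 10 had a positive aged minus young difference. The aged and young arrays lie on different slides, and the young control mice had RU486 and, for their aHFSC, labelled plucking.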

How the results depend on the processing

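Of 1889 refits of single members, 1803 kept their direction and side of the threshold, 14 lost the call of Pdzrn4 in aHFSC against tHFSC, 2 added a call and 70 changed sign, none of them of a called value. There the count of members past the threshold was 1. It was 2 with normexp and 2 without pairing by condition, and 0 with probes limited to those above background on each of the 16 arrays, where the used Pdzrn4 probe drops out, without a trend in eBayes, within slide 1, within slide 2 and with only the 2 knockout conditions, and 0 to 1 when 1 array was left out. Gene counts there were 164, against 13 without a trend, 0 within slide 1, 0 within slide 2, 0 with only the 2 knockout conditions, 269 without pairing, 108 without the 2 arrays that stand apart and 0 to 199 without 1 array. Apart from the fits with fewer arrays or probes, the cause was not tested. In the other comparisons 0 members passed under every alternative run, while gene counts of 0 reached 8 (Col17a1 cKO), 6 (aPKC cKO), 6 (young hCOL17A1), 108 (aged hCOL17A1), 447 (aged IFE), 146 (hCOL17A1 IFE), 41 (state by age) and 44 (transgene by age) when 1 array was left out. Normexp gave no fitted difference for Cyp1b1, whose probe the young control tHFSC scanner file used here does not hold.

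Signs changed with quantile normalization for Shisa2 in aHFSC against tHFSC (-0.015), aged IFE (0.045) and hCOL17A1 IFE (-0.14) and for Cyp1b1 in aged hCOL17A1 HFSC (-0.062), with normexp for Fstl1 in young hCOL17A1 HFSC (-0.017), and within slide 2 for Shisa2 in aHFSC against tHFSC (-0.45). With the mean of a gene's probes they changed for P2rx7 in Col17a1 cKO (0.14), aPKC cKO (0.84) and state by age (0.92), and for Dab2 in aged hCOL17A1 HFSC (-0.21) and state by age (0.36); the other Dab2 probe was well above background on 4 of 16 arrays. Without the 2 arrays that stand apart they changed for Pdzrn4 (-0.039) and Angptl7 (-0.98) in aged hCOL17A1 HFSC, Pdzrn4 (-0.27) and Fstl1 (0.36) in aged IFE and Angptl7 in transgene by age (-0.23). With 1 array left out, values that changed sign ran over these ranges: in aHFSC against tHFSC, Shisa2 -0.14 to 0.22; in Col17a1 cKO, Angptl7 -0.33 to 2.66 and Fstl1 -0.34 to 0.10; in aPKC cKO, Dab2 -1.0 to 0.37, Angptl7 -1.20 to 1.80, Epdr1 -0.85 to 0.21, P2rx7 -0.33 to 0.15, Cyp1b1 -0.46 to 0.36 and Fstl1 -0.28 to 0.15. In young hCOL17A1 HFSC they were Pdzrn4 -0.85 to 0.33, Angptl7 -2.42 to 0.91 and Fstl1 -0.33 to 0.42, and in aged hCOL17A1 HFSC Dab2 -0.044 to 1.74, Pdzrn4 -0.039 to 1.61, Angptl7 -0.98 to 1.85, Shisa2 -0.16 to 1.08 and Cyp1b1 -0.23 to 0.50. In aged IFE they were Pdzrn4 -0.27 to 1.73, Angptl7 -1.56 to 0.053, Shisa2 -0.25 to 0.071 and Fstl1 -0.38 to 0.36. For state by age they were Epdr1 -0.19 to 0.34, P2rx7 -0.28 to 0.074, Cyp1b1 -0.029 to 0.72 and Fstl1 -0.053 to 0.28, and for transgene by age Angptl7 -0.48 to 2.85 and Fstl1 -0.55 to 0.20. Signals near background limit the IFE values. Arrays could not be paired by replicate number, since every group has 1 array and replicate number 1. In the fit aHFSC and tHFSC were paired by condition.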
